A study of Mus musculus with 3 samples.

Results

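The genes described are 8 members of the sphingosine 1-phosphate (S1P) system: the kinases Sphk1 and Sphk2, the degrading enzymes Sgpl1 and Sgpp1, the exporter Spns2, and the receptors S1pr1, S1pr2 and S1pr4. They were taken by gene name from the non-control spots of 3 one-colour microarrays and are read by 9 probes, each spotted once, out of 39429 probes for 31131 genes. The cells were mast cells cultured out of bone marrow (bone-marrow-derived mast cells, or BMMCs) of male Pafah2-deficient mice of 12 weeks on the C57BL/6 background. One group, the vehicle group, received DMSO for 12 h, the epoxide group received 17,18-EpETE and 19,20-EpDPE, epoxides of omega-3 fatty acids, mixed in a 2 to 3 ratio at 300 nM, and the GW9662 group received this antagonist of the nuclear receptor PPAR gamma at 0.5 µM. All groups lack Pafah2, a phospholipase that releases oxidised fatty acids from phospholipids, and no wild-type array was analysed here. Each group had 1 array, so no spread between cultures could be estimated and no test was made. The labels do not give the number of mice behind an array or the deleted part of Pafah2.

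S1P is made from sphingosine by the sphingosine kinases, returned to sphingosine by the phosphatase Sgpp1 or cleaved irreversibly by the lyase Sgpl1, and carried out of cells by transporters such as Spns2. Outside the cell it acts on a family of G-protein-coupled receptors, of which S1pr1 acts through Gi proteins and S1pr2 also through G12/13 proteins. In mast cells, cross-linking of the IgE receptor is known to activate sphingosine kinase, and the S1P released acts back on the cell through S1pr1, in migration, and S1pr2, in degranulation.

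Each probe is a run of 60 bases, and its share of G and C bases is given because ratios over the whole array moved with that share. The first 30 bases of the probes on which the results turn are given 5′ to 3′, with G and C in capitals; positions are those of the array files (mm9), for the whole probe.
Sphk1, chr11:116397908-116397967, plus strand, 45% G and C: ttGCatataGaaGaCaCtCCCCattGCtCt
Sphk1, second probe, chr11:116397591-116397650, plus strand, 55% G and C: aaGCtGtGCaGGGCCaaGtGCaCCCaaaCt
S1pr4, chr10:80961501-80961560, minus strand, 55% G and C: CtGaCatCtttGGttCtaatGtCtGGGCCC
Sgpl1, chr10:60561392-60561451, minus strand, 35% G and C: CtttCCtaaCtGCaGCaataaCCCttCaaa
Spns2, chr11:72265167-72265226, minus strand, 35% G and C: GCtGCtGattGtGaatCtCaaaGtCttaaG
S1pr1, chr3:115414020-115414079, minus strand, 35% G and C: aaGatGaaaatGtGttCCttttttGtCaCa
The probes of Sphk2 (chr7:52965655-52965714), Sgpp1 (chr12:76815342-76815401) and S1pr2 (chr9:20770729-20770788) lie on the minus strand and hold 40%, 35% and 35% G and C. All 8 member probes whose gene has a strand in the RefSeq promoter table used (GRCm38) lie on that strand, and S1pr1 was not among them. Exon and UTR annotation of the probes was not used here.

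The level of a probe is the log2 of its processed intensity minus the log2 of the 75th percentile of its array (an intensity of 1916 for vehicle, 2316 for the epoxide label and 2004 for the GW9662 label). A log2 ratio is the difference of 2 levels of the same probe. Values for the 3 arrays are given in the order vehicle, epoxide label and GW9662 label, and ratios over vehicle in the order epoxide label and GW9662 label. Between 52.3% and 54.6% of the 43020 non-control spots were well above background, and the lowest level so called was -4.84 with vehicle, -5.57 for the epoxide label and -5.03 for the GW9662 label. In the authors' value table the columns of the treated samples hold each other's scanner values, and no label shows which source is the correct one. Arrays are therefore called by the label of the sample whose scanner file they are (the epoxide label, the GW9662 label), and if the value table is right, each statement on one treated array belongs to the other treatment. All 12 mast cell markers examined, among them Kit, Fcer1a and Cpa3, were well above background on all 3 arrays. Of markers of other cells, 3 of 9 for neutrophils, 4 of 6 for macrophages, 3 of 3 for basophils, 2 of 3 for endothelium, 1 of 4 for erythroid cells, 1 of 3 for T cells, and 0 of 3 for B cells and for eosinophils were well above background on all arrays. In such bulk RNA, fewer cells of a type and less RNA per cell cannot be told apart.

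The first question was how the S1P genes stood when cells without Pafah2 were given the epoxides. None of the 7 members measured (well above background on both arrays) was 2-fold apart between the array labelled omega-3 epoxides and vehicle, where 2.29% of 15818 measured genes were. The array labelled GW9662 gave 0 of 7 against vehicle (0.823% of 15795 genes), and the treated arrays gave 0 of 7 against each other (1.17% of 16049 genes). At 1.5-fold, Sphk1 alone passed for the epoxide label over vehicle, where 10.2% of all genes did (8.85% in the same direction), and no member did for the GW9662 label over vehicle (1.84%) or between the treated arrays (5.75%). The members' median log2 ratios were 0.06, -0.03 and 0.10 in these comparisons, beside -0.07, -0.02 and -0.06 over all measured genes. Positive ratios stood in 5, 3 and 5 of the 7 members. The comparisons with vehicle share the vehicle array, so their values are set side by side and not as separate evidence.

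**Figure D1:**
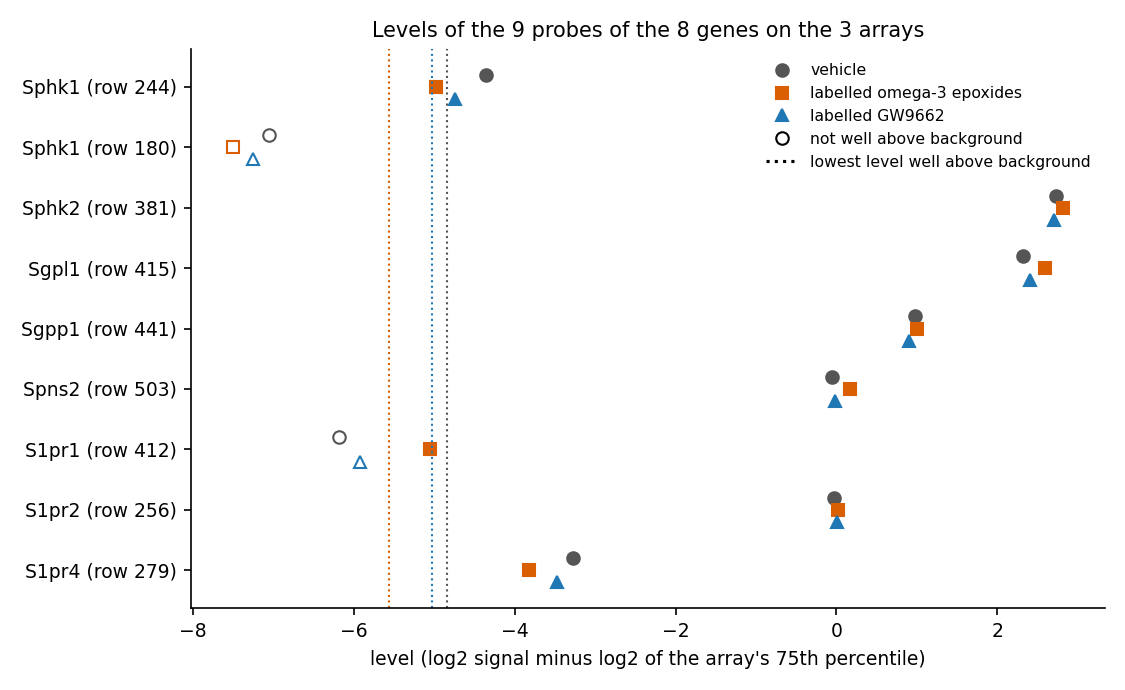
Levels (log2 signal minus log2 of the array's 75th percentile, x axis) of the 9 probes of the 8 genes on the 3 arrays, 1 point per array, open where the spot was not well above background; dotted lines mark, for each array, the dimmest level that counted as well above background. Levels can be compared only within a probe: Sphk1 (row 244) and S1pr4 are lowest and Sgpl1 and Spns2 highest for the epoxide label, and S1pr1 is filled on that array only.

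Of the 2 kinases that make S1P, Sphk1 was dim and lower on both treated arrays, while Sphk2 was far above background and nearly level. Sphk1, the kinase that moves to the plasma membrane on stimulation, had intensities of 93.6 with vehicle, 73.7 for the epoxide label and 74.8 for the GW9662 label. The lowest intensities called well above background on these arrays were 66.8, 48.9 and 61.5, so Sphk1 stood close above them on all 3. Its levels were -4.35, -4.97 and -4.74, with vehicle the highest and the epoxide label the lowest.

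The log2 ratio of Sphk1 was -0.62 (1.54-fold lower) for the epoxide label over vehicle and -0.39 (1.31-fold lower) for the GW9662 label over vehicle. Copies of other probes at levels of -6 to -4 give a technical SD of 0.28 for either ratio, an error between spots that leaves out differences between cultures, labellings and hybridisations. Both ratios were larger than that SD, and the ratio between the treated arrays, -0.23, was smaller than its SD of 0.25. The Sphk1 ratio for the epoxide label was -0.23 after quantile normalization and -0.29 after cyclic loess. It was -0.22 with a trend in G and C share and signal removed from each array. Its size thus depended on the scaling while its sign did not, and at -0.23 and -0.22 it was smaller than the SD of 0.28. For the GW9662 label the same settings gave -0.34, -0.32 and -0.30. Between the treated arrays the sign turned, to 0.11, 0.02 and 0.07.

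The second Sphk1 probe, 257 bases from the first along the chromosome and annotated to another transcript variant, had intensities of 14.5, 12.8 and 13.2. None was well above background, so it gives no second reading of the gene.

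Sphk2, the kinase also found in the nucleus and mitochondria, had intensities of 12683, 16330 and 13018 and levels of 2.73, 2.82 and 2.70 with vehicle, the epoxide label and the GW9662 label. The log2 ratios over vehicle were 0.09 and -0.03, with technical SDs of 0.07 for each. The ratio for the epoxide label lay between 0.09 and 0.15 under the processing alternatives applied to the scanner files, and that for the GW9662 label between -0.03 and -0.01.

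Among the genes that remove or export S1P, the lyase and the exporter were slightly higher for the epoxide label, and the phosphatase was level. Sgpl1, the lyase of the endoplasmic reticulum that ends the pathway, had intensities of 9563, 13920 and 10605 and levels of 2.32, 2.59 and 2.40. Its array labelled omega-3 epoxides was the highest and vehicle the lowest, with log2 ratios over vehicle of 0.27 (1.20-fold) and, for GW9662, 0.08. The technical SD was 0.07 for both. With the trend in G and C share and signal removed, the ratios were 0.12 and 0.05.

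Spns2, a transporter that exports S1P, had intensities of 1838, 2607 and 1976 and levels of -0.06, 0.17 and -0.02. The array labelled omega-3 epoxides again stood above the other two, at a log2 ratio of 0.23 (1.17-fold) over vehicle, beside 0.04 for the GW9662 label. With the trend removed these became 0.08 and 0.00.

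Sgpp1, the phosphatase that returns S1P to sphingosine, had intensities of 3761, 4637 and 3756 and levels of 0.97, 1.0 and 0.91. Its ratios over vehicle, 0.03 for the epoxide label and -0.07 for the GW9662 label, did not exceed the technical SD of 0.07. With the trend removed they were -0.13 and -0.11, both beyond that SD. The sign of the first thus depended on that choice.

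The receptors gave 1 gene that was level on all arrays and 1 at the edge of detection. S1pr4 was lower on the treated arrays, but by less than its technical SD with the trend removed. S1pr2 had intensities of 1872, 2354 and 2009 and levels of -0.03, 0.02 and 0.00, the narrowest range among the members (0.06). Its log2 ratios over vehicle were 0.06 and 0.04, within the technical SD of 0.08, and that for the epoxide label was -0.09 with the trend removed.

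S1pr4, a receptor found mainly on blood and lymphoid cells, had intensities of 199, 164 and 180 and levels of -3.27, -3.82 and -3.48. As for Sphk1, vehicle was the highest and the epoxide label the lowest. The log2 ratio was -0.55 (1.47-fold lower) for the epoxide label over vehicle and -0.21 (1.16-fold lower) for the GW9662 label, with technical SDs of 0.15 and 0.16, and -0.34 between the treated arrays. With the trend in G and C share and signal removed the ratios over vehicle were -0.07 and -0.08, within the technical SDs. The ratio between the treated arrays was then 0.01. Quantile normalization and cyclic loess gave -0.32 and -0.40 for the epoxide label over vehicle.

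S1pr1, the receptor that guides lymphocytes out of lymphoid organs, had intensities of 26.4, 69.9 and 33.1 and was well above background only on the array labelled omega-3 epoxides. Its levels were -6.18, -5.05 and -5.92. The brightest of these readings lay under the dimmest level that counts as well above background with vehicle (-4.84) and for the GW9662 label (-5.03), so no fold difference can be given for either.

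Of the related genes that are not members, S1pr3 had levels of -1.17, -1.51 and -1.31 and log2 ratios over vehicle of -0.34 and -0.14 (41.7% G and C). The probes of S1pr5, a receptor of natural killer cells, and Sgpp2, the other S1P phosphatase, were not well above background on any array. Among measured receptors, S1pr2 was thus level, while S1pr3 and S1pr4 had negative ratios on both treated arrays. With the trend removed those of S1pr3 were -0.26 and -0.13, and those of S1pr4 lay within the technical SD. S1pr2 then had -0.09 for the epoxide label, just beyond its technical SD of 0.08.

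The order of the arrays within a member went with the base composition of its probe. The array labelled omega-3 epoxides was the highest in 6 of 8 members (Sphk2, Sgpl1, Sgpp1, Spns2, S1pr1 and S1pr2), all with probes of 35% to 40% G and C. It was the lowest in Sphk1 and S1pr4, with probes of 45% and 55%. For S1pr1 this order rests on readings that were not well above background on the other arrays. Over all 15818 measured genes Pearson's r between G and C share and log2 ratio was -0.48 for the epoxide label over vehicle, and over 15795 genes -0.21 for the GW9662 label. These correlations are across genes on the same arrays, which are not independent replicates.

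Against genes with probes of like composition, the members stood as follows for the epoxide label over vehicle. The bands of composition hold genes of all signal levels, so a dim probe such as that of Sphk1 is set beside brighter ones. From 35% to under 40% G and C the median was 0.09 and the middle 50% of 5659 genes ran from -0.03 to 0.19: S1pr2 and Sgpp1 lay inside, Sgpl1 and Spns2 above. From 40% to under 45% the middle 50% ran from -0.20 to 0.06, with Sphk2 at 0.09. From 45% to under 50% it ran from -0.35 to -0.05, and Sphk1 at -0.62 lay below it. From 55% to under 60% it ran from -0.54 to -0.22, and S1pr4 at -0.55 lay just below it. For the GW9662 label Sphk1, at -0.39, lay below the middle 50% of its band (-0.13 to 0.03), S1pr4, at -0.21, just below its own (-0.19 to -0.03), and Sgpp1, at -0.07, just below its own (-0.05 to 0.09). The other 4 measured members lay within their bands there.

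**Figure D2:**
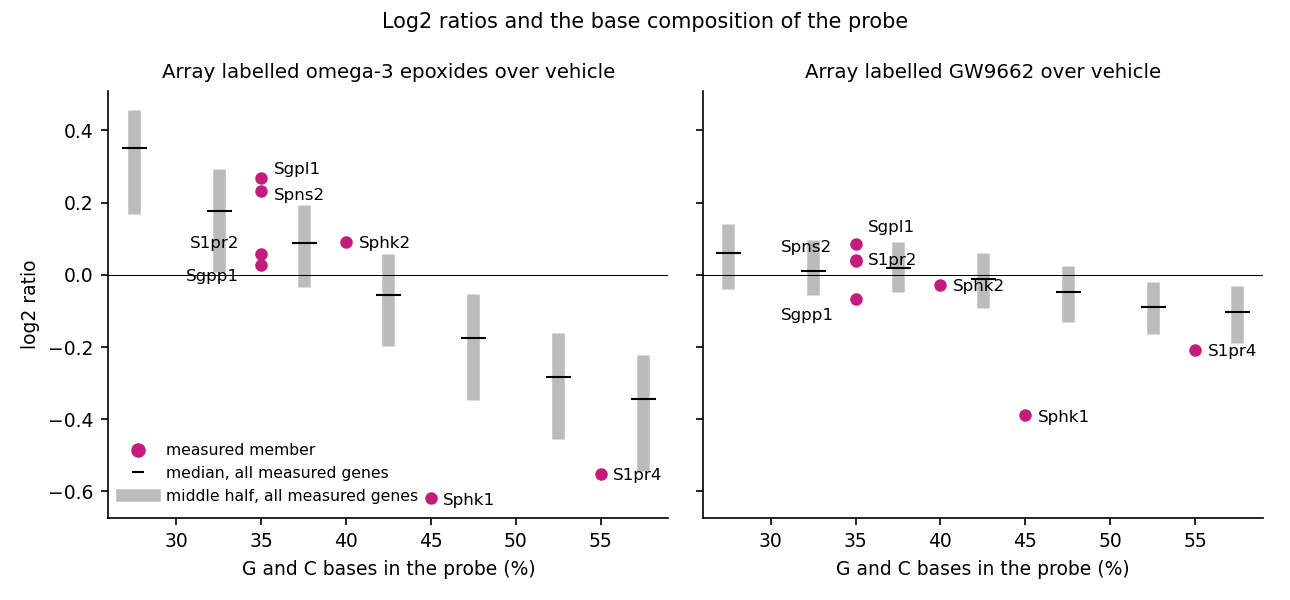
Log2 ratio (y axis) against the probe's percentage of G and C (x axis) for the 7 measured members (points), over the median (line) and middle 50% (grey bar) of all measured genes in bands of 5 percentage points. In the left panel (epoxide label over vehicle) the bands fall from a median of 0.09 at 35% to 40% to -0.34 at 55% to 60%; Sphk1 lies below its band in both panels.

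A second measure that moved with the differences was the place of the spot on the array. Sphk1 (row 244), S1pr2 (256), S1pr4 (279) and Sphk2 (381) lie in a middle band of the array, the 220 rows that end at row 400 of 532. There 3.43% of 6726 measured genes were 2-fold apart for the epoxide label over vehicle, beside 1.44% of 9092 outside. For the GW9662 label the shares were 1.89% and 0.033%. Sgpl1 (row 415), Sgpp1 (441) and Spns2 (503) lie outside, and their ratios over vehicle ran from 0.03 to 0.27 for the epoxide label and from -0.07 to 0.08 for the GW9662 label. Both members lower by more than 0.5 therefore lie inside these rows. The neighbours of a spot were the single-copy spots well above background on all arrays within 10 rows and 10 columns. This measure was added after the data were seen. The 174 neighbours of Sphk1 had a median log2 ratio of -0.08 for the epoxide label, and the 188 of S1pr4 had -0.09. Over all measured genes the median was -0.07. The parts that base composition and place took in the members' ratios were not tested beyond the trend removal given.

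Some markers of other cells were lower for the epoxide label, as Sphk1 and S1pr4 were, where 61.1% of all measured genes had negative ratios. The 3 measured neutrophil markers of 9 had negative ratios over vehicle (median -0.51). A list's summed level is the log2 of its markers' summed linear levels, with those not well above background included. For neutrophils it was 0.95 with vehicle, 0.42 with the epoxide label and 0.99 with the GW9662 label. Elane, the brightest of the list, had levels of 0.73, 0.22 and 0.66, and Mpo had -5.48, -5.42 and -2.43. The neutrophil granule genes Prtn3, Ltf, S100a8, S100a9 and Ngp were not well above background on any array. Of 4 measured macrophage markers of 6, 3 had negative ratios (median -0.33) and Adgre1 had 0.37, though its second probe had -1.82, with summed levels of -0.07, -0.11 and -0.17 and C1qa among those not well above background. With the trend in G and C share and signal removed the neutrophil median was -0.36 and the macrophage median -0.03. Of the 3 neutrophil ratios 1 was then positive (Camp, 0.008). The T cell list, measured by 1 of 3 genes, had summed levels of -0.26, -1.33 and -0.57. The basophil list had a median of -0.04 and summed levels of 3.69, 3.66 and 3.68. With the trend removed its median was -0.13, with 3 of 3 ratios negative. The B cell list had summed levels of -4.54, -4.96 and -1.66: Cd79a, not well above background on the other arrays, was at least 8.43-fold higher for the GW9662 label than with vehicle. Mpo, of the neutrophil list, was at least 5.34-fold higher there. Both genes' probes lie in the middle band of rows, and a second probe of each was not well above background on any array. The mast cell list had 9 negative ratios of 12 (median -0.15, but 6 of 12 and a median of 0.0046 with quantile normalization) and summed levels of 9.63, 9.28 and 9.49. The part of these cells in the S1pr4 and Sphk1 ratios was not tested.

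**Figure D3:**
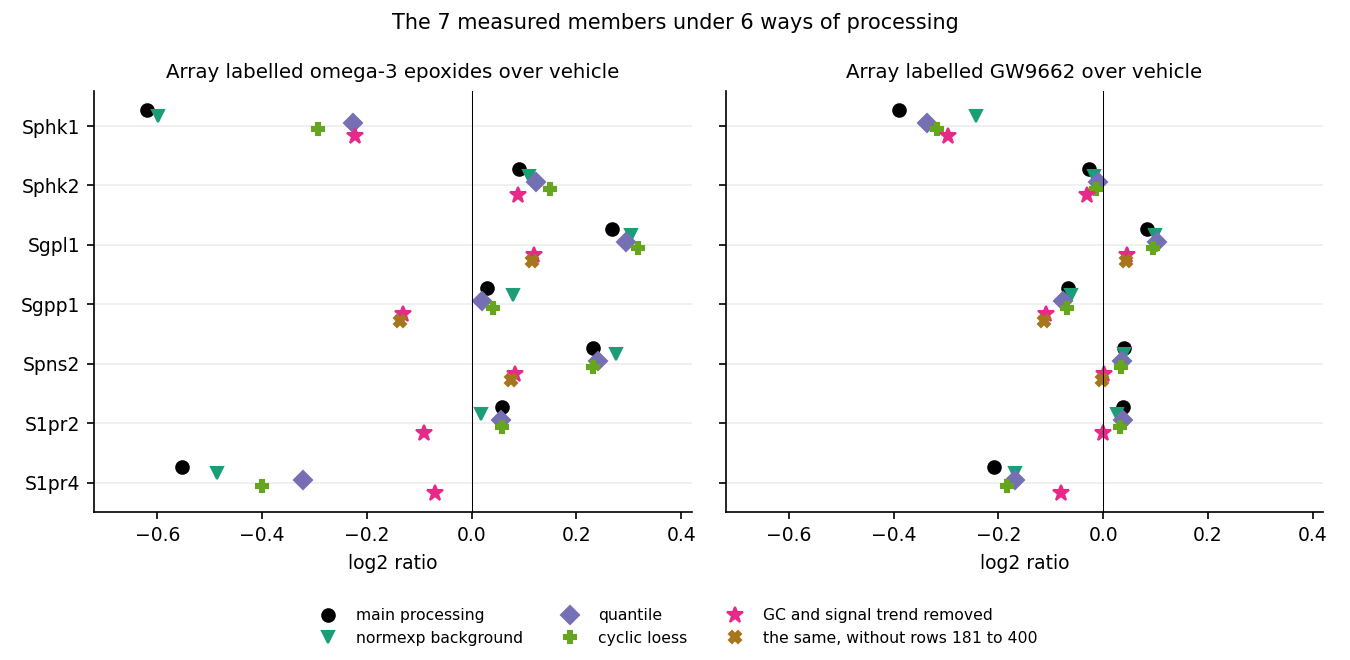
Log2 ratios (x axis) of the 7 measured members (rows) under 6 ways of processing the scanner files, for the epoxide label (left) and the GW9662 label (right) over vehicle; the setting without the middle band exists for Sgpl1, Sgpp1 and Spns2 only. Sphk1 and S1pr4 stay below 0 throughout, with S1pr4 at -0.07 and Sphk1 at -0.22 once the trend in G and C share and signal is removed.

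The wider pathway was read through 7 lists of 77 genes that supply sphingosine, carry S1P or act beside its receptors; 76 were found on the arrays and 61 were measured in each comparison with vehicle. In the 6 lists with more than 1 measured gene, medians lay between -0.14 and 0.09. The list of other S1P receptors and phosphatase was measured by S1pr3 alone. Over all measured genes, 61.1% of ratios were negative for the epoxide label and 57.8% for the GW9662 label. For the epoxide label, 30 of the 61 had positive ratios, the median was below 0.01 in size, and 1 gene was 2-fold apart (1.64%, beside 2.29% of all genes). For the GW9662 label, 29 were positive, the median was -0.01, and 1 gene was 2-fold apart (1.64%, beside 0.823%). Between the treated arrays, 2 of 63 were (3.17%, beside 1.17%). With normexp background correction the counts were 0, 1 and 0, and without the middle band of rows they were 0 in each comparison (38, 38 and 39 genes).

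Genes of ceramide synthesis, the source of the sphingoid backbone, had 8 positive ratios of 12 for the epoxide label (median 0.07) and 7 of 12 for the GW9662 label (median 0.01), or 6 and 5 of 12 with the trend in G and C share and signal removed. Sptssa, a small subunit of serine palmitoyltransferase, had ratios of 0.23 and 0.11, Ormdl2, a regulator of that enzyme, 0.17 and -0.03, Ormdl1, another such regulator, 0.00 and 0.09, and the ceramide synthase Cers4 -0.24 and -0.13. With the trend removed the Cers4 ratio for the epoxide label was 0.05. Sptlc3, a catalytic subunit of the same transferase, was not well above background with vehicle (level -7.15) but was so for the epoxide label (-3.64) and for the GW9662 label (-4.95). The difference for the epoxide label over vehicle was at least 2.30-fold, no fold can be given for the GW9662 label, and the ratio between the treated arrays was 1.31, or 0.65, under 2-fold, with normexp. Its probe lies in row 304, and a second Sptlc3 probe, in row 8, was not well above background on any array.

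The 3 measured ceramidases, which free sphingosine from ceramide, were Asah1, Asah2 and Acer3. Their ratios were -0.11, 0.31 and -0.01 for the epoxide label and 0.02, 0.23 and 0.09 for the GW9662 label. The dim Asah2 had a second probe at -0.19 and 0.15, so its sign for the epoxide label rested on the probe. The ratio of Acer3 for the epoxide label was positive, at 0.01 to 0.05, with the trend removed, with normexp and with each other scaling of the scanner files.

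Enzymes of sphingomyelin and other ceramide fates held the gene farthest from 0 for the epoxide label among those measured on both arrays, which leaves out Sptlc3. Samd8, a ceramide phosphoethanolamine synthase, had levels of -3.98, -5.43 and -3.93 and log2 ratios of -1.45 and 0.05 over vehicle (row 358). The array labelled omega-3 epoxides was the only low one, and Samd8 lay there close above the lowest level called well above background (-5.57). The ratio was -1.16 with the trend in G and C share and signal removed. With normexp it was -0.73, under 2-fold, and the ratio for the GW9662 label was -0.04. Galc, the lysosomal galactosylceramidase, had levels of -3.90, -4.68 and -4.57 and was lower on both treated arrays, with ratios of -0.78 and -0.67 (row 369). These were -0.46 and -0.43 with normexp, and -0.83 and -0.69 with the trend removed. The sphingomyelinases Smpd1, with ratios of -0.35 and -0.16, and Smpd2, with -0.22 and -0.26, have probes of 55% G and C, and with the trend removed their ratios for the epoxide label were 0.00 and 0.27. The list of 11 measured genes had 5 positive and 6 negative ratios for the epoxide label (median -0.09, or 0.01 with quantile normalization).

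The list of export, carriage and surface phosphatases had 5 positive ratios of 7 for the epoxide label (median 0.08) and 4 of 7 for the GW9662 label (median 0.07, or -0.01 with normexp background correction). Abca1, a cholesterol exporter also linked to S1P release, had ratios of 0.23 and 0.35, and the transporter Abcg2 had 0.25 and 0.24. Apom, the apolipoprotein that carries S1P in plasma, had levels of -4.24, -4.89 and -4.16 and a ratio of -0.65 for the epoxide label, which was -0.17 with the trend removed, and 0.08 for the GW9662 label, which was -0.04 with normexp.

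Genes of the receptors' G proteins and their effectors were split 6 to 6 for the epoxide label (median 0.03) and 5 to 7 for the GW9662 label (median -0.01); quantile normalization gave 9 and 10 positive ratios of 12. Arhgef11, a guanine nucleotide exchange factor driven by G12/13 proteins, had levels of -2.70, -2.43 and -2.08 and ratios of 0.27 and 0.62. With the trend removed these were -0.23 and 0.51, so its sign for the epoxide label depended on that choice (21.7% G and C, row 299).

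Among regulators of sphingosine kinase and of receptor display, 10 of 15 ratios were negative for the epoxide label (median -0.14, beside -0.07 over all genes) and 9 of 15 for the GW9662 label (median -0.02, as over all genes), shares near those of all genes. Klf2, a transcription factor that drives S1pr1 in lymphocytes, had levels of 2.95, 2.33 and 1.89. Vehicle was the highest and the GW9662 label the lowest, with ratios of -0.62 and -1.06, or -0.55 and -1.04 with the trend removed (row 354). Cd69, which draws S1pr1 off the cell surface, had levels of 3.23, 2.93 and 2.73, ordered like those of Klf2, with ratios of -0.30 and -0.49 (row 296). Arrb2, an arrestin, had -0.49 and -0.13, or -0.25 and -0.06 with the trend removed (51.7% G and C). The receptor kinase Grk2 had 0.36 and 0.02, and 0.26 for the epoxide label with the trend removed.

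**Figure D4:**
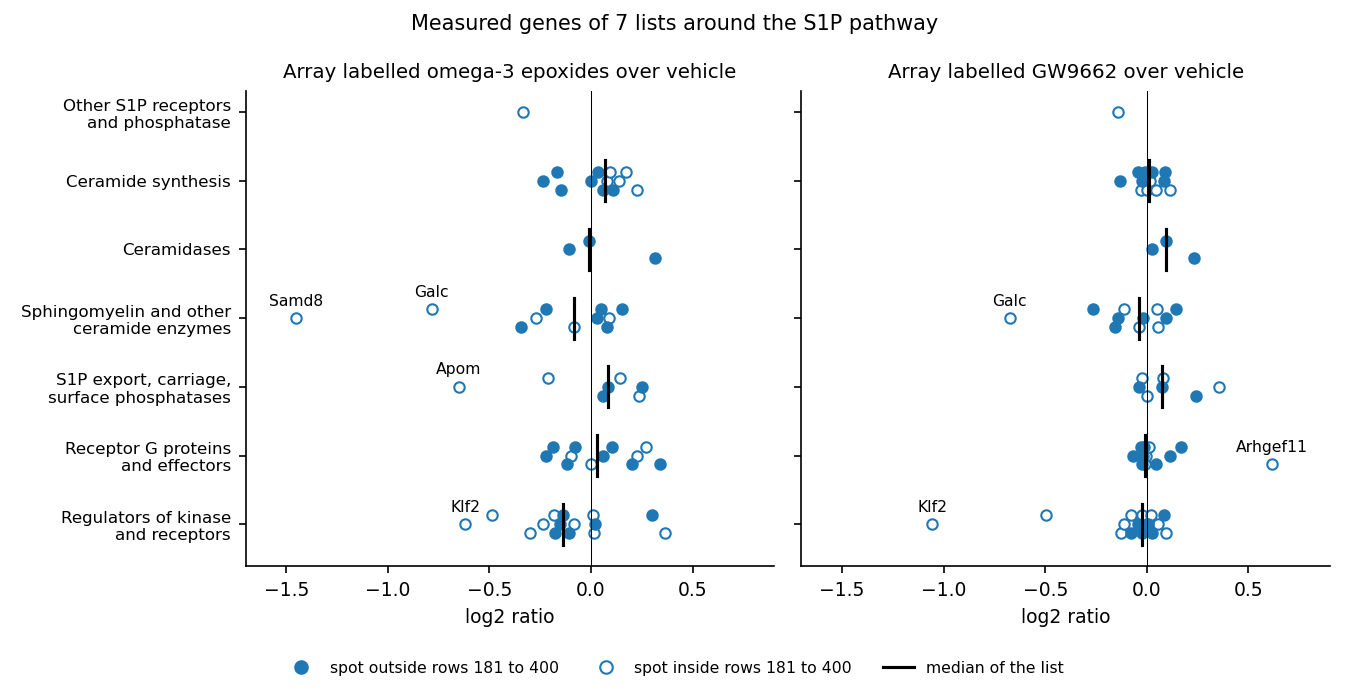
Log2 ratio over vehicle (x axis) of each measured gene in the 7 lists around the pathway (rows), for the epoxide label (left) and the GW9662 label (right); open points lie in the middle band of the array and bars mark list medians. The genes named in the plot, those farthest from 0 (Samd8, Galc, Apom, Klf2 and Arhgef11), all lie inside that band. So do 6726 of the 15818 genes measured for the epoxide label over vehicle. No list median is farther from 0 than -0.14 in the lists with over 1 measured gene.

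Of the pathway genes, those whose pair of ratios over vehicle lay nearest to that of Sphk1 were Arrb2 (Euclidean distance 0.296 in log2 units), Galc (0.329) and Cd69 (0.338). The measure rests on 3 arrays and on ratios with no trend removed. The probes of all 3 genes lie in the middle band of rows, as do those of 6726 of 15818 measured genes for the epoxide label over vehicle. Each Sphk1 ratio over vehicle itself has a technical SD of 0.28, close in size to these distances.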

How the data were processed

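RNA (200 ng per labelling, per the labels' protocols) was labelled with Cy3. The submitters' processing notes name Agilent Feature Extraction, version 11.5.1.1. The processed signal of a spot is, per the file headers, a background-subtracted intensity on a linear scale, with no scaling between arrays; the mean and background signals of a spot are intensity values too. The authors' deposited value table holds a linear ratio of each intensity to about the array's 75th percentile. Its quotients to 1 scanner file were constant within 0.001 for all spots. Its column medians were 0.0524, 0.0500 and 0.0413 for the samples labelled vehicle, epoxides and GW9662.

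For this account, log2 intensity was reduced by the log2 of the array's 75th percentile over non-control spots. Outlier-marked spots (230, 221 and 251, no member among them) were left out, and copies averaged. No member spot was saturated. Probes took RefSeq symbols where their accession matched (28330 of 39429). A gene was read by its brightest probe, measured when well above background on both arrays, and counted at 2-fold. Where only 1 array was above background, the dimmer took the lowest level that counted as well above background there, or its own where that was higher. The members, the lists and the rule for naming genes (all members, 5 related genes, and in each list those 2-fold apart and up to 3 farthest from 0) were chosen with earlier results of these data known. Alternatives used limma 3.58.1 in R 4.3.3, and the scripts were tested on simulated data. Values of some genes of these lists are not reported here.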

Additional observations from a re-analysis of the deposited data

How the results depend on the processing

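With 1 array per group, no error between cultures was available and nothing was tested. The treated arrays cannot be assigned with certainty, and dim probes limit Sphk1 and S1pr1. No paired analysis was possible because each group has 1 array and no replicate could be matched. Processing alternatives were normexp background correction (offset 50), quantile normalization, cyclic loess, a percentile taken over detected probes, the authors' value table, the mean of detected probes, no filter on dim probes, outlier spots kept, leaving out the 220 rows that end at row 400, and removal of a quadratic trend in G and C share and signal, alone and without those rows; those for pathway genes were added after the data were seen.

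Set aside here are the value table and 3 settings: mean of detected probes, no filter and outlier spots kept. These 3 could not move the ratios of the 7 measured members. Under the other settings 110 of 123 member ratios kept their sign, 13 turned and 30 moved by more than the technical SD. Of the turns, 7 of 21 ratios came with the trend removed and 3 of 9 with the trend and those rows removed. The largest ratio that turned was -0.34, of S1pr4 between the treated arrays. The members' median, 0.06 for the epoxide label over vehicle, was -0.028 in the value table, 0.22 without those rows (3 members) and -0.070 with the trend removed. For the GW9662 label it went from -0.03 to 0.057 in the value table. Between the treated arrays it went from 0.10 to -0.096 in the value table and 0.18 without those rows. These shifts follow from the exchanged columns and, without those rows, from fewer members; the cause of the shift with the trend removed was not tested. The count of members 2-fold apart, 0, became 1 for the epoxide label without the filter (S1pr1) and 1 at 1.5-fold (Sphk1). In the value table Samd8 reversed, to 0.053 for the epoxide label over vehicle and 1.51 between the treated arrays, and Sptlc3 to -1.31 between them. Without the filter 4, 4 and 3 pathway genes were 2-fold apart, in place of 1, 1 and 2.

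Over all genes, 34 were higher and 328 lower by 2-fold for the epoxide label over vehicle, 63 and 141 with quantile normalization, 55 and 185 with cyclic loess, 16 and 128 with normexp, 60 and 115 with the trend removed, and 23 and 21 with the trend and those rows removed. Between the treated arrays 33 were higher and 154 lower, or 56 and 88 with quantile normalization, 51 and 102 with cyclic loess and 55 and 86 with the trend removed.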

Other observations

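Ormdl2, which restrains serine palmitoyltransferase, was read by a pair of probes in rows 244 and 376. The bright one had log2 ratios of 0.17 for the epoxide label and -0.03 for the GW9662 label over vehicle. The dim one, with levels of -2.80, -1.78 and -2.59, had 1.02 and 0.21, so a single-probe reading of this gene would give either a level gene or one 2-fold higher. The 2 probes were singled out after their values were seen, and why they differ was not tested.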
